A study of Homo sapiens with 9 samples.

Results

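The NRF2 pathway and antioxidant genes described here are 9 genes, NFE2L2, KEAP1, GCLC, GCLM, NQO1, TXNRD1, SRXN1, HMOX1 and GPX2, taken by gene symbol from the 58735 genes of the deposited tables. Each symbol matched 1 gene, and all 9 genes passed the filter on low counts in every comparison. Their mRNA was measured by RNA-Seq in Huh-7 cells, a human hepatoma line, in 3 groups of 3 libraries. The control group was wild-type Huh-7. The Ako-3 group was 1 clone of Huh-7 in which the APOB gene was knocked out by CRISPR-Cas9, and the Mko-3 group was 1 clone of Huh-7 with a knockout of MTTP that had been made earlier. APOB encodes the scaffold protein of lipoproteins and MTTP encodes the protein that loads lipid onto it, so neither clone secretes apoB normally. All groups were grown in DMEM with fetal bovine serum, washed with PBS near confluence and kept overnight without serum before RNA isolation. As each knockout is a single clone, the effect of the knockout and other differences of that clone from the control cells cannot be told apart. The labels call the 3 libraries of a group biological replicates but do not say what was repeated, so the p values measure the spread between these libraries.

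NRF2, the product of NFE2L2, is a transcription factor that turns on genes for antioxidant defence. In unstressed cells KEAP1, an adaptor for the CUL3 ubiquitin ligase, binds NRF2 and delivers it for degradation, and electrophiles or oxidants that modify KEAP1 let NRF2 accumulate. NRF2 then pairs with a small MAF protein on antioxidant response elements near its targets, where BACH1 can compete with it. Control of NRF2 is therefore largely at the protein level, which RNA-Seq does not measure. The other 7 genes are commonly used readouts of this pathway. GCLC and GCLM are the catalytic and modifier subunits of the rate-limiting enzyme of glutathione synthesis. TXNRD1 is the cytosolic thioredoxin reductase and SRXN1, or sulfiredoxin, repairs overoxidized peroxiredoxins. NQO1 reduces quinones, HMOX1 degrades heme, and GPX2 is a selenium-dependent glutathione peroxidase.

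The antioxidant response element is the sequence through which NRF2 acts, so the stretches that hold its core letters are shown for these genes. The letters TGACNNNGC, read on both strands (GCNNNGTCA on the opposite strand), were searched in RefSeq promoter windows of build GRCh38.p14 that run from 250 bases before to 50 bases after a gene start. Windows were matched for 8 of the 9 genes, all but HMOX1. The letters were present in a window of 4 of these 8 genes, KEAP1, GCLM, TXNRD1 and GPX2. They were absent from the windows of NFE2L2, GCLC, NQO1 and SRXN1. Sequence outside the windows was not searched, so these genes and HMOX1 may hold the letters elsewhere. Over all genes with a window the share that held the letters was 16.1%, and over all windows it was 13.3%. The first KEAP1 stretch below is chr19:10502807-10502835, the second is chr19:10502784-10502812 and partly covers the first, and the GCLM stretch is chr1:93909446-93909474, all on the minus strand. The TXNRD1 stretches are chr12:104215670-104215698 and chr12:104286920-104286948 on the plus strand, from windows of 2 gene starts, and the GPX2 stretch is chr14:64942849-64942877 on the minus strand. In the GENCODE release 44 annotation the KEAP1, GCLM and second TXNRD1 stretches lie in or reach into an exon of the same gene, and the first TXNRD1 stretch lies outside genes. The GPX2 stretch lies inside the GPX2 gene as the deposited files place it. In GENCODE release 44, where the minus-strand GPX2 gene starts at 64942746, it lies before that start and in an intron of the overlapping genes CHURC1 and CHURC1-FNTB. Each is written 5′ to 3′ along the gene, with the matching letters in capitals.
KEAP1 first: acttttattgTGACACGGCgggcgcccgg
KEAP1 second: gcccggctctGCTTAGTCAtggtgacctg
GCLM: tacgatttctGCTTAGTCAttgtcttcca
TXNRD1 first: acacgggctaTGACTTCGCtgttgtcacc
TXNRD1 second: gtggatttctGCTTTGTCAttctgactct
GPX2: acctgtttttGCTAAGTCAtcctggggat
The matching letters of the second KEAP1 stretch and of the GCLM stretch are the same 9 bases. A further match in the first TXNRD1 window reaches the gene start and is not shown. A match is a description of the letters and not evidence of binding in these cells.

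Total counts ranged from 14638727 to 20179760 per library, and each of the 9 genes had at least 245 counts in every library. Between libraries of 1 group, the chi-square per gene of the counts was 6.93 to 8.88 in control, 3.12 to 3.45 in Ako-3 and 2.43 to 2.84 in Mko-3, so the control libraries differed most among themselves. Mitochondrial genes took 5.52 to 7.40% of the counts and were highest in the Ako-3 libraries. APOB mRNA fell in Ako-3 cells (log2 fold change -1.36) and MTTP mRNA fell in Mko-3 cells (-2.88), with adjusted p values of 7.13e-05 and 9.36e-19, respectively. All 10 hepatocyte markers examined passed the count filter, and the mean level of albumin (ALB) in control cells was 2547 FPKM. In Ako-3 cells 7 of these markers rose and 0 fell, and in Mko-3 cells 3 rose and 4 fell. Of 12 markers of leukocytes, endothelium and stroma, 4 were at 0 in every library (CD68, CD163, KDR and CLEC4M). Only PECAM1 and COL3A1 passed the count filter, and PECAM1 made up most of the summed level, which was 73.3 to 81.6 CPM in control, 104 to 112 CPM in Ako-3 and 49.5 to 54.9 CPM in Mko-3 libraries. The part of these differences in the results below was not tested. In bulk RNA, fewer cells with a transcript and less of it per cell cannot be told apart.

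Of the 9 genes, KEAP1, NQO1, HMOX1 and GPX2 rose in both knockout clones against control. GCLM, TXNRD1 and SRXN1 fell in Ako-3 cells, and TXNRD1 alone fell in Mko-3 cells. NFE2L2 and GCLC did not pass the test in any comparison. Here a gene rose or fell when its adjusted p (edgeR quasi-likelihood test, Benjamini-Hochberg over all genes tested) did not exceed 0.05, and it was called differentially expressed when its log2 fold change was also at least 1 in size. By that rule 0 of the 9 genes were called in Ako-3 cells, where 8.52% of all 15787 genes tested were called (3.52% higher, 5% lower). In Mko-3 cells 1 gene, GPX2, was called as higher, against 11% of 15745 genes (3.82% higher, 7.22% lower). Without the fold threshold, 7 of the 9 genes passed in Ako-3 cells (4 up, 3 down) and 5 in Mko-3 cells (4 up, 1 down), where the shares over all genes were 49.9% (25.5% up, 24.4% down) and 54% (26.9% up, 27.1% down). The 2 comparisons share their control libraries. Differences between the clones were therefore taken from a separate fit of Mko-3 against Ako-3, in which 4 of the 9 genes passed, all higher in Mko-3, and 41.6% of all 15528 genes passed (21.1% higher, 20.6% lower). None of the 9 genes was called between the clones, beside 5.73% of all genes (2.26% higher, 3.47% lower). With 3 libraries against 3, an exact permutation test of a single gene cannot give a p below 0.1, so all p values come from the fit across genes.

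**Figure D1:**
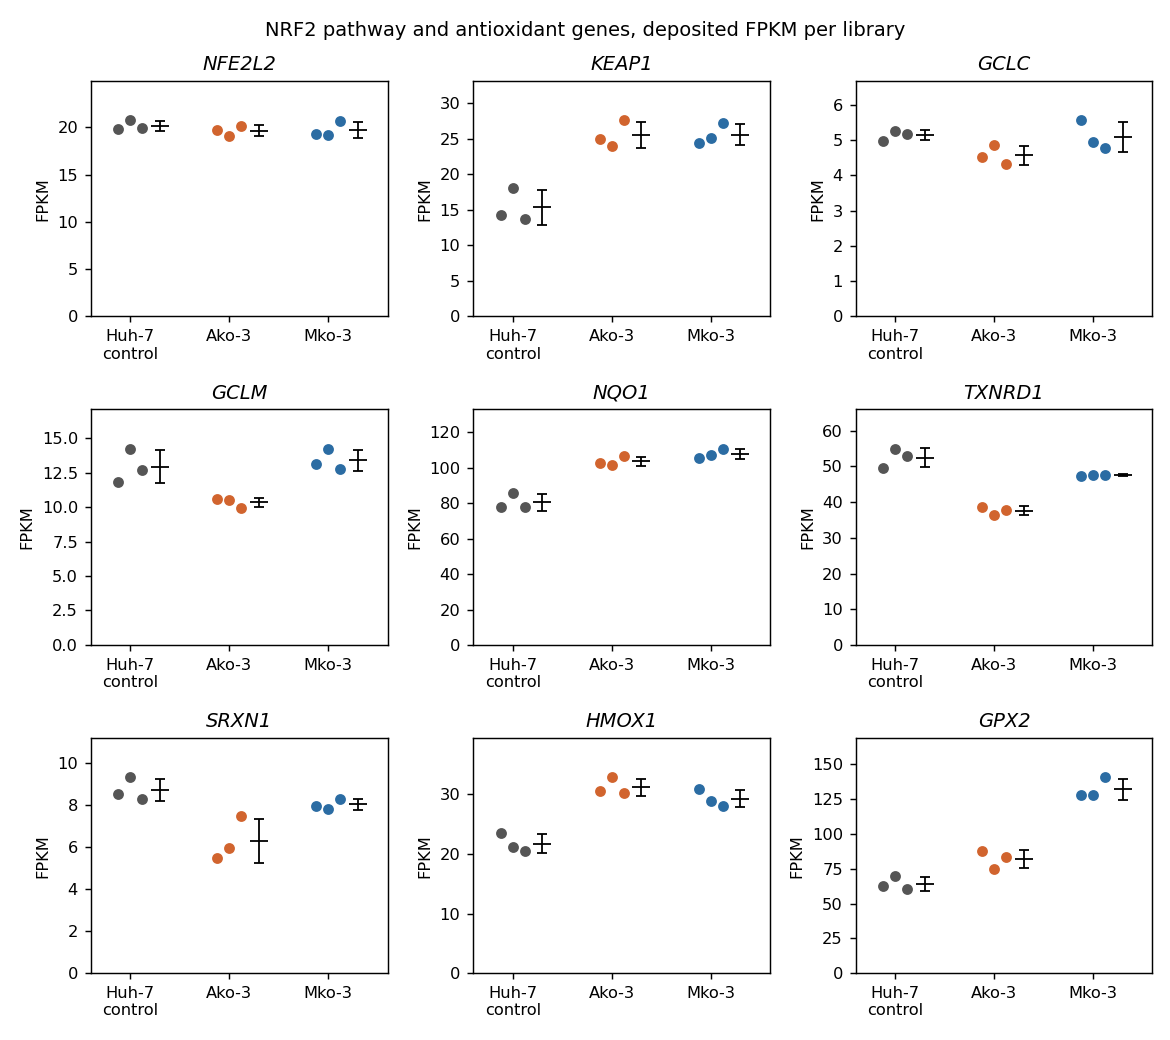
The panels plot the deposited FPKM (y axis, starting at 0) of each of the 9 genes in each library of the 3 groups (x axis). Points are libraries, and the bar beside them is the mean with its SD (n = 3). KEAP1, NQO1, HMOX1 and GPX2 were higher in every knockout library than in every control library, and TXNRD1 was lower.

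Of the regulators, KEAP1 rose in each clone and NFE2L2 did not pass the test. NFE2L2 (chromosome 2, 177227595 to 177392697, minus strand, hg38) was measured at 19.8, 20.7 and 19.9 FPKM in the control libraries, 19.7, 19.0 and 20.2 in Ako-3 and 19.3, 19.2 and 20.6 in Mko-3. FPKM are fragment counts scaled to gene length and library size, so comparisons between genes depend on the lengths used. The groups overlapped throughout. The log2 fold changes were -0.04 in both clones, with 95% confidence intervals of -0.17 to 0.09 in Ako-3 and -0.17 to 0.09 in Mko-3, and adjusted p values of 0.622 and 0.578. Both intervals lie below those of KEAP1, which start at 0.54. Within these coordinates, GENCODE release 44 places 21.7% of the NFE2L2 exon bases in exons of other genes, which had mean levels of 0.434 FPKM or less.

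KEAP1 (chromosome 19, 10486120 to 10503741, minus strand) was 14.2, 18.1 and 13.7 FPKM in control libraries, 25.0, 24.0 and 27.6 in Ako-3 and 24.4, 25.1 and 27.2 in Mko-3. Every knockout library lay above every control library, and the clones overlapped each other. The log2 fold change was 0.73 ± 0.09 (SE) in Ako-3 (adjusted p = 3.63e-06) and 0.73 ± 0.09 in Mko-3 (adjusted p = 1.32e-06), which are folds of 1.66 and 1.66. Between the clones the difference was -0.0052, with a 95% interval of -0.11 to 0.10 (adjusted p = 0.951). Control replicate 2 was the highest control library for KEAP1 and for 8 of the 9 genes in all, and it also had the lowest total count. Leaving out single libraries moved the KEAP1 change between 0.66 and 0.87 in Ako-3 and between 0.65 and 0.87 in Mko-3.

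The ratio of these genes was also taken within each library. KEAP1 over NFE2L2 in FPKM was 0.760 ± 0.0996 (SD, n = 3) in control cells, 1.30 ± 0.0599 in Ako-3 and 1.30 ± 0.0274 in Mko-3. Thus, by FPKM, KEAP1 was below NFE2L2 in all 3 control libraries and above it in all 6 knockout libraries. Which gene is higher depends on the gene lengths in the files, 3761 bases for KEAP1 and 5979 for NFE2L2. In CPM, which is not scaled to length, KEAP1 had means of 58.3 in control, 97.3 in Ako-3 and 97.1 in Mko-3. Those of NFE2L2 were higher in each group, at 122, 119 and 119 CPM. The rise of the ratio from control to the clones does not depend on the lengths.

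Other members of the regulatory machinery were taken from a list of 18 regulators and partners, all of which were tested. In Ako-3 cells 5 rose and 8 fell (median log2 fold change -0.10), and in Mko-3 cells 7 rose and 7 fell (median 0.0063), beside medians over all genes of -0.0087 and -0.011. The called genes were MAFF and MAFK in Ako-3 and BACH2 in Mko-3, and all 3 were lower than in control. The BACH2 call was lost without control replicate 3, at a log2 fold change of -0.91. MAFF and MAFK are small MAF proteins, the DNA-binding partners of NRF2 and BACH1. MAFF had mean levels of 17.7 FPKM in control, 7.57 in Ako-3 and 10.7 in Mko-3 cells, and it fell by 1.23 in Ako-3 (adjusted p = 6.02e-11) and 0.74 in Mko-3 (adjusted p = 1.23e-08). MAFK had means of 14.9, 6.60 and 9.19 FPKM and fell by 1.18 (adjusted p = 9.50e-10) and 0.71 (adjusted p = 4.01e-07). Both small MAF genes were higher in Mko-3 than in Ako-3, by 0.48 for MAFF (adjusted p = 1.19e-09) and 0.47 for MAFK (adjusted p = 1.13e-07). Over the whole list, 9 of 18 genes were higher and 1 was lower in Mko-3 than in Ako-3.
BACH2, a repressor of the BACH family, was low, at 0.891 FPKM in control cells, and its log2 fold changes were -0.66 in Ako-3 (adjusted p = 0.00672) and -1.11 in Mko-3 (adjusted p = 3.70e-05). The BACH2 fall in Ako-3 did not pass without control replicate 3 (-0.46, adjusted p = 0.0693). The third small MAF gene of the list, MAFG, and the repressor BACH1 were looked at after their values were seen. MAFG fell by 0.91 in Ako-3 (adjusted p = 2.35e-08) and 0.46 in Mko-3 (adjusted p = 3.51e-05). BACH1 fell by 0.44 in Ako-3 (adjusted p = 1.04e-05) and 0.45 in Mko-3 (adjusted p = 6.92e-06), and its relation to HMOX1 was not tested. Log2 fold changes over the list ran from -1.23 to 0.73 in Ako-3 and from -1.11 to 0.93 in Mko-3. The highest in Ako-3 was KEAP1, and the highest in Mko-3 was a gene not named here.

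Of the subunits of the glutathione-synthesizing enzyme, GCLM fell in Ako-3 cells and GCLC did not pass the test in any comparison. GCLM (chromosome 1, 93885205 to 93909456, minus strand) was 11.8, 14.2 and 12.7 FPKM in control libraries, 10.6, 10.5 and 9.94 in Ako-3 and 13.2, 14.2 and 12.8 in Mko-3. The Ako-3 libraries lay below all others, while control and Mko-3 overlapped. GCLM fell by 0.32 ± 0.08 on the log2 scale in Ako-3 (adjusted p = 0.00149). In Mko-3 the change was 0.04, with a 95% interval of -0.12 to 0.20 (adjusted p = 0.676). The clones differed, with GCLM higher in Mko-3 by 0.37 ± 0.06 (adjusted p = 2.55e-07).
GCLC (chromosome 6, 53497341 to 53616970, minus strand) had the lowest FPKM of the 9 genes in every group. It was 4.98, 5.27 and 5.19 FPKM in control, 4.52, 4.87 and 4.34 in Ako-3 and 5.56, 4.94 and 4.78 in Mko-3. This rank depends on its gene length in the files, 8646 bases. In CPM, GCLC had means of 44.9 in control, 40.1 in Ako-3 and 44.4 in Mko-3, above those of SRXN1 (23.7, 17.2 and 21.9). The Ako-3 libraries lay below the control libraries, yet the log2 fold change of -0.17 ± 0.08 did not pass the test (adjusted p = 0.0736, 95% interval -0.33 to -0.01 before adjustment). The change in Mko-3 was -0.03 (adjusted p = 0.805), and the difference between the clones was 0.15 (adjusted p = 0.0819). The ratio of GCLM to GCLC in FPKM was 2.51 ± 0.168 in control, 2.26 ± 0.0950 in Ako-3 and 2.64 ± 0.261 in Mko-3 cells, with the Ako-3 libraries below the control libraries and Mko-3 overlapping them.

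Larger changes stood upstream and downstream of this enzyme. Of 16 tested genes of glutathione synthesis and turnover, 4 rose and 7 fell in Ako-3 cells (median -0.20), and 2 rose and 7 fell in Mko-3 cells (median -0.20). The called genes were SLC7A11, CHAC1 and CTH in both comparisons, and each was lower than in control. SLC7A11 is the cystine-importing subunit of system xc- and a known NRF2 target. Its mean level was 9.87 FPKM in control, 2.16 in Ako-3 and 2.18 in Mko-3 cells, and its log2 fold changes were -2.19 ± 0.08 (adjusted p = 7.42e-14) and -2.19 ± 0.12 (adjusted p = 1.19e-09). CTH makes cysteine from cystathionine, and it fell by 2.09 in Ako-3 (adjusted p = 2.63e-12) and by 2.05 in Mko-3 (adjusted p = 8.12e-09). CHAC1 breaks glutathione down, and it fell by 2.19 (adjusted p = 2.57e-12) and by 1.91 (adjusted p = 9.24e-13).
All 3 genes are also targets of ATF4, the transcription factor of the integrated stress response. In a list of 24 ATF4 targets that was drawn up with earlier results of these data known, 2 rose and 18 fell in Ako-3 cells and 1 rose and 21 fell in Mko-3 cells. The medians of that list were -0.74 and -0.73. In each clone 10 of its genes were called lower and 1 was called higher, and the latter is not named here. Log2 fold changes of that list reached 1.81 in Ako-3 and 1.42 in Mko-3. CEBPB, a stress-responsive transcription factor, fell by 0.75 in Ako-3 (adjusted p = 1.61e-08) and by 1.29 in Mko-3 (adjusted p = 2.58e-12). NUPR1, a stress-induced chromatin protein, was the 1 gene of that list called between the clones, lower in Mko-3 with a log2 difference of -2.56 (adjusted p = 3.55e-26). Against control, NUPR1 went in opposite directions, at 0.98 in Ako-3 (adjusted p = 4.67e-07) and -1.57 in Mko-3 (adjusted p = 3.99e-07). The rise in Ako-3 lay just under the fold threshold and was called without Ako-3 replicate 1, Ako-3 replicate 2 or control replicate 1.

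TXNRD1 and SRXN1 were lower in Ako-3 than in both other groups. TXNRD1 (chromosome 12, 104215779 to 104350305, plus strand) was 49.6, 54.9 and 52.8 FPKM in control libraries, 38.8, 36.2 and 37.7 in Ako-3 and 47.2, 47.7 and 47.6 in Mko-3. No group overlapped another, and the Mko-3 libraries lay between the others. TXNRD1 fell by 0.49 ± 0.06 in Ako-3 (adjusted p = 1.57e-06) and by 0.15 ± 0.06 in Mko-3 (adjusted p = 0.031). The fall in Mko-3 did not pass when any one Mko-3 library or control replicate 2 was left out (adjusted p = 0.125, 0.101, 0.122 and 0.0861 without Mko-3 replicate 1, 2, 3 and control replicate 2), nor with no count filter (adjusted p = 0.159). TXNRD1 was higher in Mko-3 than in Ako-3 by 0.33 ± 0.04 (adjusted p = 1.07e-10).
SRXN1 (chromosome 20, 646615 to 653370, minus strand) was 8.54, 9.32 and 8.28 FPKM in control, 5.48, 5.95 and 7.46 in Ako-3 and 7.97, 7.82 and 8.30 in Mko-3 libraries. The Ako-3 libraries lay below all others but were spread, with replicate 3 nearest to control. SRXN1 fell by 0.47 ± 0.11 in Ako-3 (adjusted p = 0.00162). In Mko-3 the change of -0.13 did not pass (adjusted p = 0.256, 95% interval -0.32 to 0.07), and the groups did not overlap in CPM but did in FPKM. SRXN1 was higher in Mko-3 than in Ako-3 by 0.34 ± 0.10 (adjusted p = 0.00235). In GENCODE release 44, 90.7% of its exon bases also belong to an overlapping gene on the same strand, which had a mean of 0.0627 FPKM, so the level of SRXN1 depends on how shared reads were counted.

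Of 21 tested genes of the thioredoxin and peroxiredoxin system, 6 rose and 6 fell in Ako-3 cells (median 0.10), and 6 rose and 5 fell in Mko-3 cells (median 0.05). The called genes were MSRA and TXNIP. TXNIP, which binds and inhibits thioredoxin, fell by 0.91 in Ako-3 (adjusted p = 8.61e-10) and by 1.23 in Mko-3 (adjusted p = 4.79e-12), from a mean of 66.2 FPKM in control cells. MSRA, a methionine sulfoxide reductase, rose by 1.00 in Ako-3 (adjusted p = 7.73e-06) and 0.40 in Mko-3 (adjusted p = 0.0295) and was low in control cells, at 1.46 FPKM. The MSRA change in Ako-3 lay at the fold threshold, and its call was lost with upper quartile scaling and without Ako-3 replicate 1, Ako-3 replicate 3, control replicate 2 or control replicate 3, at log2 fold changes of 0.94 to 0.99. The MSRA rise in Mko-3 did not pass with upper quartile scaling (adjusted p = 0.0708). It also did not pass without Mko-3 replicate 1 or 3 (adjusted p = 0.0736 and 0.0912) or control replicate 2 or 3 (0.0571 and 0.101). Between the clones 7 of the 21 genes were higher and 11 lower in Mko-3.

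**Figure D2:**
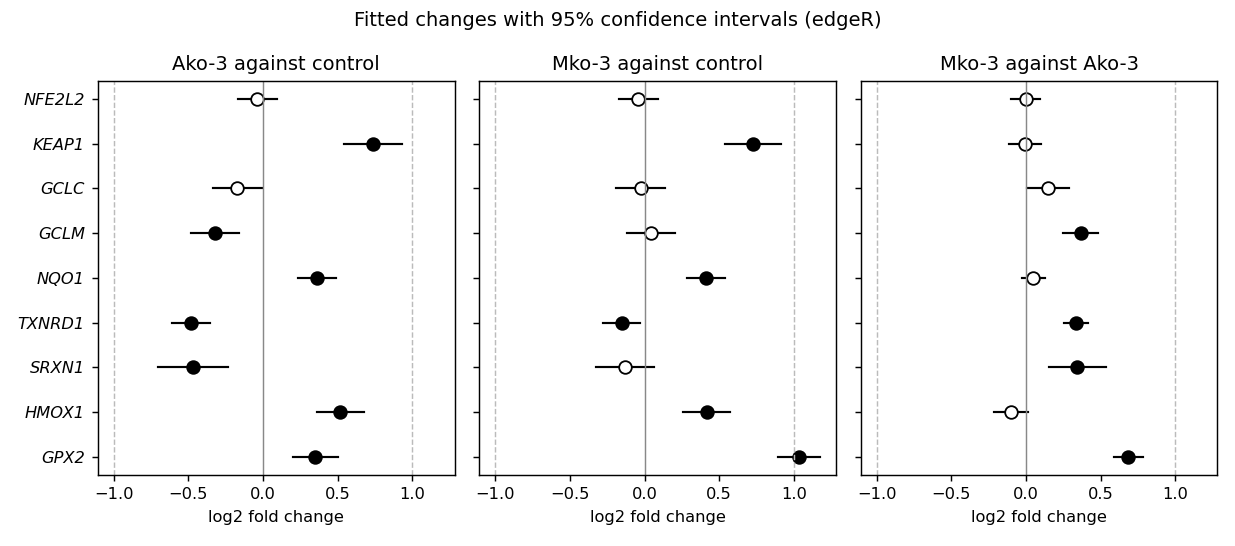
Fitted log2 fold changes (x axis) of the 9 genes (y axis) in the 3 comparisons, with 95% confidence intervals as lines. Filled points passed an adjusted p of 0.05, and dashed lines mark a log2 fold change of 1 in size. GPX2 in Mko-3 against control, at 1.03, is the 1 point past the dashed lines, and GCLM, TXNRD1, SRXN1 and GPX2 are the filled points between the clones.

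NQO1 and HMOX1 rose in both clones. NQO1 (chromosome 16, 69706996 to 69726951, minus strand) was 77.7, 85.8 and 77.6 FPKM in control libraries, 103, 101 and 107 in Ako-3 and 105, 107 and 111 in Mko-3. The knockout libraries lay above all control libraries and overlapped each other. NQO1 rose by 0.36 ± 0.06 in Ako-3 (adjusted p = 5.09e-05) and by 0.41 ± 0.06 in Mko-3 (adjusted p = 6.53e-06), or 1.29-fold and 1.33-fold. The difference between the clones was 0.05, with a 95% interval of -0.03 to 0.13 (adjusted p = 0.33). An antisense gene that shares 19.4% of the NQO1 exon bases was at 0 FPKM in all libraries.
HMOX1 (chromosome 22, 35380361 to 35394214, plus strand) was 23.4, 21.1 and 20.5 FPKM in control, 30.4, 32.8 and 30.1 in Ako-3 and 30.8, 28.8 and 28.0 in Mko-3 libraries. Again every knockout library exceeded every control library and the clones overlapped. HMOX1 rose by 0.52 ± 0.07 in Ako-3 (adjusted p = 9.07e-06) and by 0.42 ± 0.08 in Mko-3 (adjusted p = 8.29e-05), or 1.43-fold and 1.33-fold. Between the clones the difference was -0.10, with a 95% interval of -0.21 to 0.01 (adjusted p = 0.158).

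Other genes of these arms were mixed in direction. Of 9 tested genes of the heme and iron arm, 2 rose and 2 fell in Ako-3 and 4 rose and 4 fell in Mko-3 cells, with 0 called in either (medians -0.10 and -0.18). Both medians changed sign when single libraries were left out. The Ako-3 median was 0.03 without control replicate 3. The Mko-3 median was 0.07 without Mko-3 replicate 1 and 0.07, 0.08 and 0.02 without control replicate 1, 2 and 3, and in each of these Mko-3 fits 10 genes of the list were tested instead of 9. Of the quinone, carbonyl and drug handling targets of NRF2, 12 of 34 rose and 7 fell in Ako-3 (median 0.10), with 4 called up and 1 called down. In Mko-3 cells 9 of 35 rose and 11 fell (median 0.03), with 1 called up and 3 called down. Log2 fold changes of this list reached 2.35 in Mko-3, in a gene that is not among those named below. Between the clones 10 of 35 were higher and 14 lower in Mko-3.
The genes of this list with the smallest adjusted p differed between the clones. AKR1C1 and AKR1C2 are aldo-keto reductases that act on steroids and carbonyls. AKR1C2 had means of 4.89 FPKM in control, 10.5 in Ako-3 and 1.76 in Mko-3 cells, so that it rose by 1.09 in Ako-3 (adjusted p = 5.81e-09) and fell by 1.49 in Mko-3 (adjusted p = 4.32e-10). Its call in Ako-3 was lost without control replicate 2, at a log2 fold change just under the threshold (0.998). AKR1C1 had means of 6.65, 7.20 and 1.74 FPKM, with a change of 0.11 in Ako-3 (adjusted p = 0.237) and a fall by 1.95 in Mko-3 (adjusted p = 2.39e-13). GSTA1, a glutathione S-transferase, had means of 2.77, 17.1 and 1.55 FPKM, rose by 2.63 in Ako-3 (adjusted p = 1.91e-10) and fell by 0.83 in Mko-3 (adjusted p = 0.0152). The GSTA1 fall in Mko-3 did not pass without Mko-3 replicate 3 (adjusted p = 0.0629) or without control replicate 3 (adjusted p = 0.0952). Without control replicate 1 it was called, at a log2 fold change of -1.07.
In Mko-3 against Ako-3 the log2 differences were -2.58 for AKR1C2 (adjusted p = 3.68e-42), -2.05 for AKR1C1 (adjusted p = 7.84e-37) and -3.45 for GSTA1 (adjusted p = 8.73e-31). AKR1C1 and AKR1C2, and GSTA1 and its neighbours, are near-identical copies whose reads may have been split between them, so the values of single copies are uncertain.

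The largest change among the 9 genes in the 3 comparisons was that of GPX2 in Mko-3 cells. GPX2 (chromosome 14, 64939152 to 64942905, minus strand) was 62.3, 69.5 and 60.2 FPKM in control libraries, 87.4, 74.7 and 83.1 in Ako-3 and 128, 128 and 140 in Mko-3. The 3 groups did not overlap, with control lowest and Mko-3 highest. GPX2 rose by 0.35 ± 0.07 in Ako-3 (adjusted p = 4.72e-04) and by 1.03 ± 0.07 in Mko-3 (adjusted p = 8.41e-11), or 1.28-fold and 2.04-fold. It was higher in Mko-3 than in Ako-3 by 0.68 ± 0.05 (adjusted p = 9.24e-20). The call in Mko-3 lay at the fold threshold. The log2 fold change was 0.97 with upper quartile scaling and fell to 0.99 at the lowest when single libraries were left out, which ended the call without Mko-3 replicate 3 or control replicate 3, while the adjusted p was at most 2.28e-08 in every alternative.
Of 11 tested glutathione peroxidases, superoxide dismutases and catalase, 6 rose and 1 fell in Ako-3 (median 0.17), and 5 rose and 4 fell in Mko-3 (median 0.13), and GPX2 was the 1 gene called. GPX2 and TXNRD1 contain selenocysteine. Of 10 genes of selenoprotein synthesis and selenium handling, 3 rose and 4 fell in Ako-3 (median -0.11), and 1 rose and 4 fell in Mko-3 (median -0.15). SEPSECS, which makes the selenocysteine carried by its tRNA, was the 1 gene called, in Mko-3. It fell by 0.80 in Ako-3 (adjusted p = 7.26e-08) and by 1.34 in Mko-3 (adjusted p = 1.42e-11), with means of 17.5 FPKM in control, 10.1 in Ako-3 and 6.95 in Mko-3 cells.

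NADPH is the electron donor of thioredoxin reductase, glutathione reductase and NQO1. Of 14 tested genes of NADPH supply, 5 rose and 2 fell in Ako-3 cells (median 0.0036), and 9 rose and 3 fell in Mko-3 cells (median 0.24). MTHFD2, a mitochondrial folate enzyme that is also an ATF4 target, was called lower in both, by 1.51 in Ako-3 (adjusted p = 6.83e-12) and 1.22 in Mko-3 (adjusted p = 5.67e-11), from a mean of 23.0 FPKM in control. ME3, a mitochondrial malic enzyme, was called higher in Mko-3, by 1.15 (adjusted p = 3.25e-04), and did not pass in Ako-3 (-0.31, adjusted p = 0.401). ME3 was low, with means of 0.429 FPKM in control, 0.347 in Ako-3 and 0.972 in Mko-3 cells, and it was higher in Mko-3 than in Ako-3 by 1.47 (adjusted p = 5.93e-07). List medians near 0 depended on the scaling: with upper quartile scaling those of the regulators (-0.06), the thioredoxin system (-0.015) and the quinone, carbonyl and drug handling targets (-0.04) in Mko-3 and of NADPH supply (-0.05) in Ako-3 were below 0. When single libraries were left out, the medians of the regulators (-0.0052 without control replicate 1) and the quinone, carbonyl and drug handling targets (-0.0039 without Mko-3 replicate 2) in Mko-3 and of NADPH supply (-0.00024 without control replicate 1) in Ako-3 were also below 0.

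**Figure D3:**
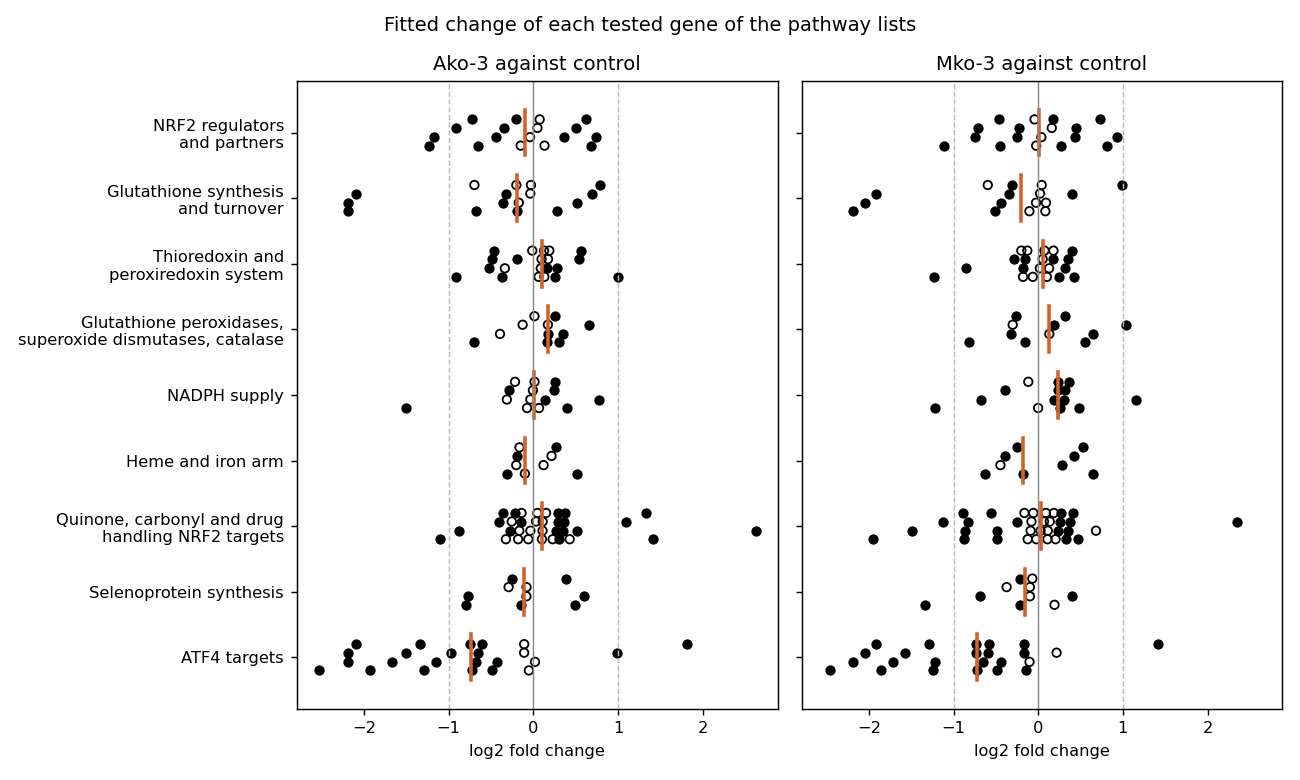
Each point is a tested gene of 1 of 9 lists (y axis) at its fitted log2 fold change against control (x axis), for Ako-3 on the left and Mko-3 on the right. Filled points passed an adjusted p of 0.05, orange bars are list medians, and dashed lines mark a log2 fold change of 1 in size. The ATF4 targets have medians of -0.74 and -0.73, and the medians of the other lists lie between -0.20 and 0.24. All lists were drawn up with earlier results of these data known, so the low ATF4 medians are a description and not a test. Some ATF4 targets, such as SLC7A11, CTH, CHAC1 and MTHFD2, are also points of the glutathione or NADPH lists.

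The levels of the 9 genes relative to each other also differed between groups. In control cells the order of mean FPKM was NQO1 (80.4), GPX2 (64.0), TXNRD1 (52.5), HMOX1 (21.7), NFE2L2 (20.1), KEAP1 (15.3), GCLM (12.9), SRXN1 (8.71) and GCLC (5.15). HMOX1 and NFE2L2 overlapped in this order, as did KEAP1 and GCLM, while the other neighbours did not. In Ako-3 cells NQO1 (104 FPKM) and GPX2 (81.8) led and KEAP1 stood above NFE2L2. In Mko-3 cells GPX2 (132) stood above NQO1 (108). No neighbours overlapped in either clone. In FPKM, the top gene exceeded GCLC 15.6-fold in control, 22.7-fold in Ako-3 and 25.9-fold in Mko-3 cells. The order and these folds depend on the gene lengths in the files. In mean CPM, SRXN1 was below GCLC in every group and KEAP1 was below NFE2L2 in every group. TXNRD1 (355 CPM) was above NQO1 (264) in control, and NQO1 (354) was above GPX2 (199) in Mko-3.

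Within libraries, TXNRD1 over NQO1 was 0.653 ± 0.0236 (SD, n = 3) in control, 0.362 ± 0.0124 in Ako-3 and 0.441 ± 0.00952 in Mko-3 cells. GPX2 over NQO1 was 0.795 ± 0.0178 in control and 0.789 ± 0.0567 in Ako-3 cells, where the groups overlapped, and 1.22 ± 0.0408 in Mko-3 cells, above all other libraries.

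**Figure D4:**
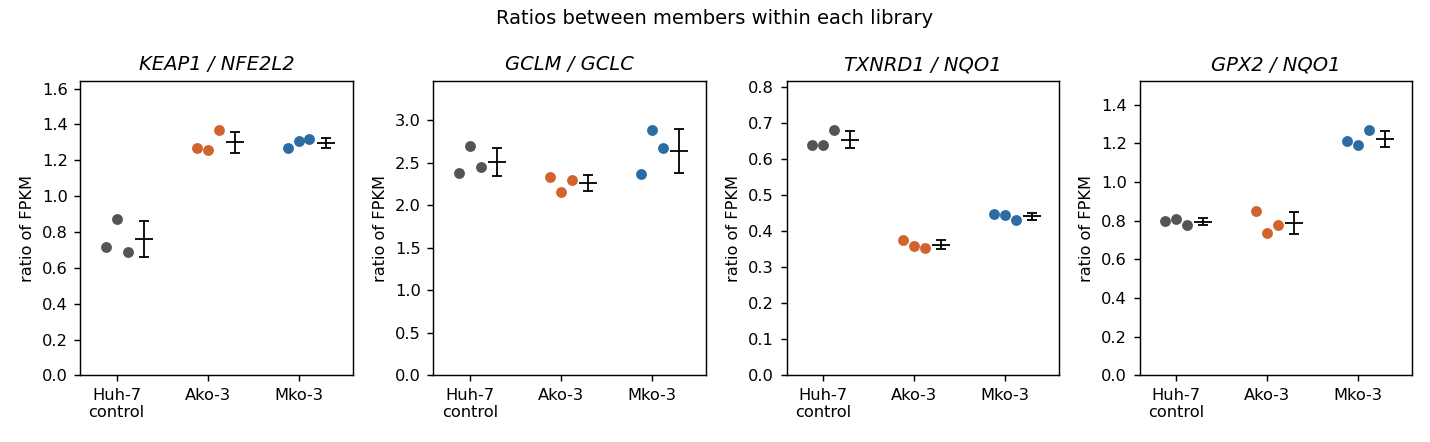
Ratios of FPKM between pairs of the 9 genes (y axis, starting at 0) in each library of the 3 groups (x axis), with points for libraries and bars for the mean with its SD (n = 3). KEAP1 over NFE2L2 lies below 1 in all control libraries and above 1 in all knockout libraries, and GPX2 over NQO1 lies above 1 in the Mko-3 libraries alone.

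By groups that did not overlap in CPM, 8 of the 9 genes separated Ako-3 from control and 6 separated Mko-3 from control, where 57.8% and 60.7% of all genes tested did so. Between the clones 4 of the 9 genes separated, against 49.6% of all genes. The genes whose levels followed NQO1 most closely over the 9 libraries, among 9824 genes with a mean of at least 10 CPM, were SF3B3, PARP1 and NSD2 (Pearson's r of log2 CPM of 0.998 for each). Those most like GCLM were LRP8 (r = 0.966), AP1S2 (0.966) and USP1 (0.965). These correlations describe 9 libraries in 3 groups, so they include the differences between groups, and they carry no test.
Of the genes tested, 10806 in Ako-3 and 10790 in Mko-3 were matched by symbol to a promoter window. The shares that rose or fell are given for those with and without the antioxidant response element letters in a window. Genes without them there may hold the letters in sequence that was not searched. In Ako-3 cells 29.8% of 2113 tested genes with the letters rose and 24.3% fell, against 28.6% and 25% of 8693 genes without them. In Mko-3 cells the shares were 30% and 27.9% with the letters and 30.8% and 26.8% without. The tested genes with no matched window, 4981 in Ako-3 and 4955 in Mko-3, rose in 18.3% and 18.8% and fell in 23.4% and 27.4%. Among the 9 genes, KEAP1 and GPX2, which have the letters, rose in both clones, whereas GCLM and TXNRD1, which also have them, fell in Ako-3. NQO1, without the letters in its windows, and HMOX1, with no window, rose in both clones too. SRXN1, also without them, fell in Ako-3, and NFE2L2 and GCLC, without them as well, did not pass.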

How the data were processed

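The authors had paired-end reads of poly-T selected mRNA aligned to hg38 with HISAT2 2.0.5 and assigned to genes with featureCounts 1.5.0-p3, versions that the submitters' processing notes also give. These notes list further builds, and coordinates in the files are those of hg38. The annotation release and the strand setting are not given in the sources used here, and the protocol describes no strand marking. The authors deposited raw counts per gene without normalization, and FPKM, in which the counts are scaled to gene length and depth. The depth term was recovered from the deposited values and is proportional to size factors computed by DESeq2 across the 9 libraries (largest deviation 2.46e-10%), so FPKM of all groups share 1 scale.

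From the counts, differential expression was computed with edgeR 4.0.16 in R 4.3.3 (TMM, minimum count of 10 in filterByExpr, quasi-likelihood F test with robust dispersion, Benjamini-Hochberg adjustment over all genes tested). Each of the 3 comparisons was fitted on its own 6 libraries. Thresholds were an adjusted p of 0.05 and an absolute log2 fold change of 1. The procedure was tested on simulated data. CPM used TMM library sizes. Libraries were grouped by the genotype in their labels. Depth was 14638727 to 20179760 counts per library. Alternatives were other scalings and filters, DESeq2 1.42.0, limma 3.58.1 (voom), 1 fit over 9 libraries, a replicate block and leaving out each library.

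The 9 genes and the lists were chosen with earlier results of these data known. Named genes are the 9 genes, APOB, MTTP, up to 3 genes per list with the smallest adjusted p among those called against control, up to 3 called between the clones, and the 3 genes most like NQO1 and GCLM. Lists are given by counts and medians, with no set test. Promoter windows are from RefSeq (GRCh38.p14), and overlaps of exons are from GENCODE release 44.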

Additional observations from a re-analysis of the deposited data

Results flagged for a closer look

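Changes that differed between the knockout clones were picked out by the fit of Mko-3 against Ako-3 (edgeR quasi-likelihood test, adjusted over all genes). Among the 9 genes, 4 passed, beside 41.6% of all 15528 genes tested (21.1% higher, 20.6% lower). Each was higher in Mko-3 than in Ako-3 in all libraries: GPX2 by a log2 difference of 0.68, GCLM by 0.37, SRXN1 by 0.34 and TXNRD1 by 0.33. Over all genes tested, the clones did not overlap in CPM for 49.6%. For GCLM and SRXN1, the change against control passed in Ako-3 and not in Mko-3, and for GPX2 and TXNRD1 it passed in both with a different size. The other 5 genes did not pass between the clones.

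Among the other genes named by the rule, those called between the clones were AKR1C1 (-2.05), AKR1C2 (-2.58), GSTA1 (-3.45) and NUPR1 (-2.56), lower in Mko-3, and ME3 (1.47), higher in Mko-3. The targeted genes differed as their labels say, with APOB at 1.31 and MTTP at -2.72 in Mko-3 against Ako-3. GSTA1 and ME3 had mean levels of 2.77 and 0.429 FPKM in control cells, respectively. With 3 libraries per group, single libraries were not tested as outliers, and the effect of leaving each out is given instead.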

How the results depend on the processing

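Of 378 fitted changes of the 9 genes under alternatives, 356 kept their direction and their side of the threshold, 5 lost the adjusted p, 3 gained it and 14 changed sign. The 27 ratios of mean deposited FPKM carry no test, and 25 had the sign of the fit. The exceptions, both between the clones, were NFE2L2 (0.0055) and KEAP1 (0.0027). The 5 were TXNRD1 in Mko-3 against control, given with its values above. The 3 gains were GCLC, in Ako-3 with upper quartile scaling (-0.22, adjusted p = 0.0227 by edgeR) and between the clones without Mko-3 replicate 3 or Ako-3 replicate 2 (adjusted p = 0.0424 and 0.0425). Sign changes touched only values that did not pass: GCLM in Mko-3 with upper quartile scaling (-0.0252), GCLC in Mko-3 with no count filter (0.0063), and NFE2L2 (0.0028) and KEAP1 (9.56e-05) between the clones with no count filter. Leaving out single libraries, these 4 ranged from -0.016 to 0.124, -0.0889 to 0.0291, -0.0334 to 0.0162 and -0.0477 to 0.0529. The number of the 9 genes called in Mko-3 was 0 with upper quartile scaling and 0 to 1 when single libraries were left out, as GPX2 lies at the fold threshold. Requiring 10 counts in every library, which tests fewer genes, reduced the genes called to 841 in Ako-3, 1113 in Mko-3 and 511 between the clones.

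Correlations of the deviations from group means were -0.276 to 0.206 between libraries with the same replicate number. Between libraries with different numbers they were -0.221 to 0.319. Deviations from a mean of 3 libraries depend on each other, so this check cannot decide whether the numbers pair the samples. With the replicate block, 1336, 1730 and 899 genes were called in Ako-3, Mko-3 and between the clones, and 7, 5 and 4 of the 9 genes passed, as without it. The cause of these shifts was not tested. With 1 clone per knockout, clonal differences cannot be told apart from the knockout. Genes at low levels in control cells, such as ME3 and GSTA1, are measured less precisely.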
